A study of Mus musculus with 9 samples.

Results

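The Schwann cell and peripheral myelin genes examined here were *Mbp*, *Pmp22*, *Prx*, *Sox10*, *S100b*, *Mag*, *Egfl8* and *Ncmap*. They were taken by symbol from a table of read counts for 27179 genes, as the inferior alveolar nerve runs through the mandible. All 8 were in the table and all 8 passed the filter on low counts, which left 16329 genes for testing. The counts came from poly(A) RNA-seq of powdered whole mandibles with their teeth from 5 WT mice and 4 mice labelled *FcγRIIB*-/-. Both groups were 6 months of age. The *FcγRIIB*-/- mice are described as males on a C57BL/6 background that lack the inhibitory Fc receptor for IgG encoded by *Fcgr2b*. No strain is stated for the WT controls. No cell type was isolated, so nerve was 1 of many tissues in each sample. Each mouse gave 1 library of between 21453880 and 28991631 counts. The count of *Fcgr2b* was not lower under the knockout label (log2 fold change 0.21 with a standard error, SE, of 0.20, and an adjusted p of 0.442), so the groups are called by their labels. The labels give each library as a sample of its own, and p-values measure the spread between these samples.

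Schwann cells are the glia of peripheral nerve. A myelinating Schwann cell wraps a single axon segment in compact membrane, which holds myelin basic protein and the tetraspan protein of *Pmp22*, and it keeps channels of cytoplasm open in non-compact regions where *Mag*, *Prx* and *Ncmap* products sit. The transcription factor SOX10 specifies the lineage and acts with EGR2 to switch on myelin genes, while Remak Schwann cells ensheathe thin axons without myelin. Sensory fibers of the inferior alveolar nerve supply the lower teeth and their ligament, and their cell bodies lie in the trigeminal ganglion, outside the mandible.

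Since SOX10 and EGR2 act at myelin promoters, the bases before the start sites of the genes were read from RefSeq (GRCm38.p6). Windows were searched for 6 of the 8 genes, 12 in all, each running from 250 bases before to 50 bases after a start site. None was searched for *Mbp* or *Sox10*, so nothing can be read here about the bases before their start sites. Short cores of the SOX motif (ACAAAG and ACAATG) and of the EGR motif (GCGTGGG) were searched on both strands. ACAAAG was in 3 of the 12 windows and in 18.7% of all 32851 windows of the genome, ACAATG in 0 of 12 and 12.6%, and GCGTGGG in 2 of 12 and 5.04%. The 3 windows with ACAAAG were that of *Egfl8* and an overlapping pair of *Mag* that share 1 match. The 4 windows of *Pmp22* and the window of *S100b* held none of the 3 cores, which says only that these letters are not there. Shown are the 250 bases before the start site of 1 window for each of the 4 genes with a match, 5′ to 3′ on the strand of the gene, with the match in capitals. They lie at chr7:27499074-27499323 on the plus strand (*Prx*), and on the minus strand at chr7:30914923-30915172 (*Mag*), chr17:34615972-34616221 (*Egfl8*) and chr4:135385673-135385922 (*Ncmap*). In GENCODE M21 the *Ncmap* bases are in an intron of its longer transcripts, the *Egfl8* bases are in an intron of *Gm20460*, and those of *Prx* and *Mag* overlap no transcript. In RefSeq the *Ncmap* and *Egfl8* bases lie within the span of their own gene, and the last of the *Prx* bases reach into the span of *Prx*. A match is a string of letters and not a site of binding.
Prx: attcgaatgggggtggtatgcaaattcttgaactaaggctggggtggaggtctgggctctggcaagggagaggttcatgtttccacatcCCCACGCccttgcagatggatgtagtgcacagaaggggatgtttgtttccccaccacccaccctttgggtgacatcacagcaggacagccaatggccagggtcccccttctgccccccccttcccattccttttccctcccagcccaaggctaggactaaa
Mag: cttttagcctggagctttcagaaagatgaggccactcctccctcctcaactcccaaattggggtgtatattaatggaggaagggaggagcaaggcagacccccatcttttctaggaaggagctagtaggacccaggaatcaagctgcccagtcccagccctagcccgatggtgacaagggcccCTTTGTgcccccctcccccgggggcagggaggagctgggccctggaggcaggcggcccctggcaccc
Egfl8: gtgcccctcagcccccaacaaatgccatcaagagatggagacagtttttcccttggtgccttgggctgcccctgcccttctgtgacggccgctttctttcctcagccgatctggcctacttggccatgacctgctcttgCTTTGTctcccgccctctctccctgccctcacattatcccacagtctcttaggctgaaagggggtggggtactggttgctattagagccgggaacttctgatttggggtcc
Ncmap: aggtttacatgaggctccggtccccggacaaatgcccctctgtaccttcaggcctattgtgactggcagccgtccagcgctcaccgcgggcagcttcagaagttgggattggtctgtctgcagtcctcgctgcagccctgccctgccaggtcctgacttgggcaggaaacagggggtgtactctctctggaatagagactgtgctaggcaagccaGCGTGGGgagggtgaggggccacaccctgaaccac
The match reads in reverse complement in *Prx* (EGR core), *Mag* and *Egfl8* (SOX core) and directly in *Ncmap* (EGR core).

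The first question was whether these genes differed between the genotypes. At an adjusted p of 0.05 in edgeR's quasi-likelihood test, 0 of the 8 genes were called, where 33.3% of all 16329 genes tested were (19.3% lower and 14.0% higher in *FcγRIIB*-/- mice). None of the 8 reached an unadjusted p of 0.05 in edgeR either, against 44.2% of all genes, and DESeq2 called 0 of 8 against 32.8% of its 18477 genes. In 0 of 8 were the groups apart in log2 CPM, meaning with no overlap between mice, against 29.6% of all genes. CPM is the count scaled to the TMM-normalized size of the library. The 8 genes had a median of 0.07 on the log2 fold change scale, beside 0.01 over all genes tested, with 5 genes above 0 and 3 below. No call does not show that the levels were equal, but the 95% intervals bound the difference, and none of the 8 reached a log2 fold change of 1 in either direction. The widest was that of *Mbp*, from -0.51 to 0.80, and the narrowest that of *S100b*, from -0.34 to 0.22.

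**Figure D1:**
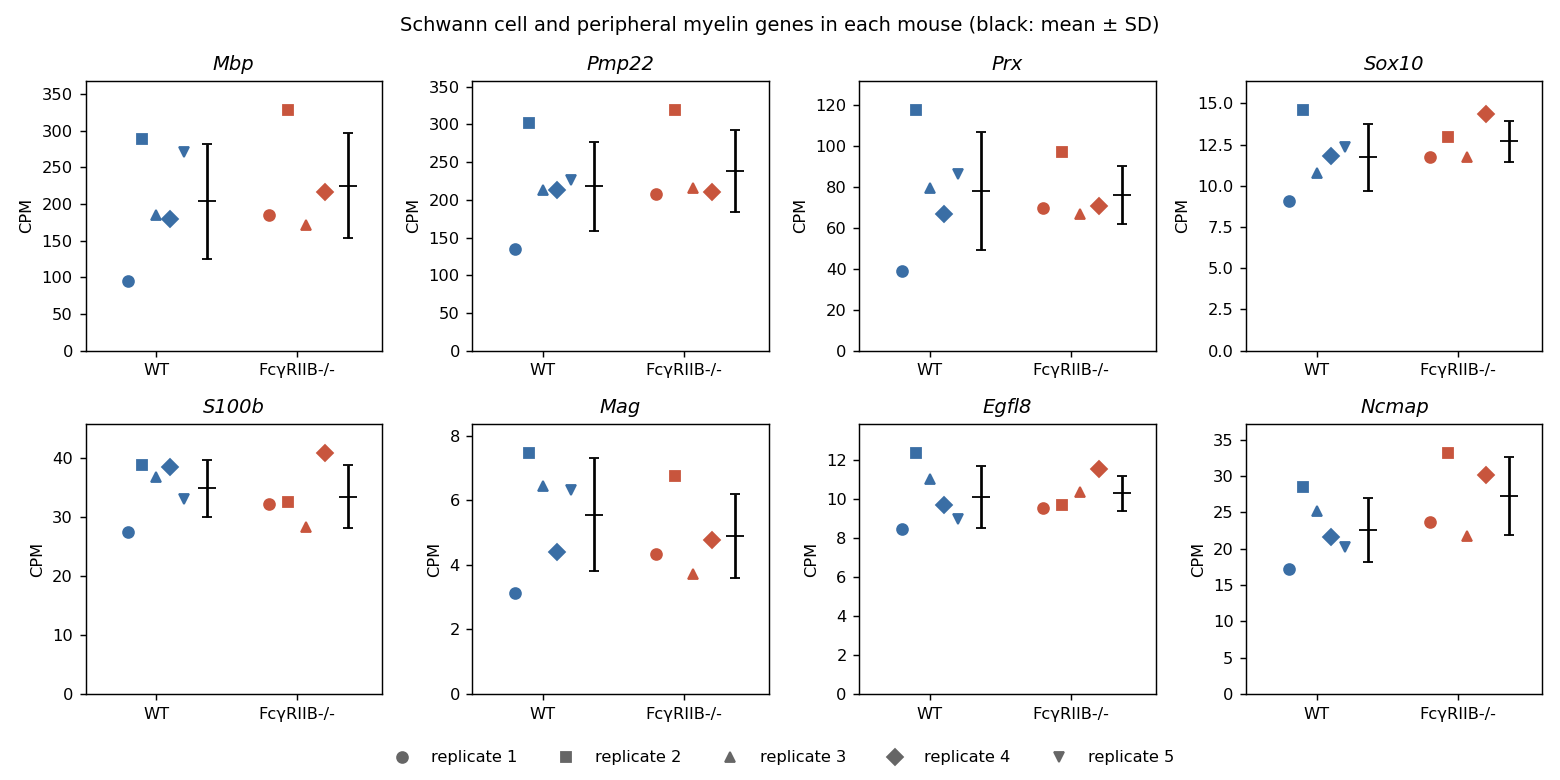
CPM (y axis) of each of the 8 genes in the 5 WT mice (blue) and the 4 *FcγRIIB*-/- mice (red), with marker shapes for replicate numbers and the mean ± SD in black. In every panel the groups overlap and WT replicate 1 is the lowest of the 9 mice.

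*Sox10*, the transcription factor of the lineage, lies on the minus strand of chromosome 15 (mm10, 79154913 to 79164490). Its level was 9.06, 14.6, 10.8, 11.8 and 12.4 CPM in WT replicates 1 to 5 and 11.7, 13.0, 11.7 and 14.3 CPM in *FcγRIIB*-/- replicates 1 to 4. WT replicate 1 was lowest and WT replicate 2 highest, and all *FcγRIIB*-/- mice fell between them. The means were 11.7 ± 2.04 (SD, n = 5) and 12.7 ± 1.24 (SD, n = 4), a log2 fold change of 0.11 (SE 0.14, 95% interval -0.18 to 0.41, adjusted p = 0.543).

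Of the compact myelin genes, *Mbp* encodes the basic protein that holds the cytoplasmic faces of the membrane together and lies on the plus strand of chromosome 18 (82475091 to 82585637). It had 94.8, 289, 184, 179.7 and 270.3 CPM in the WT mice and 184, 328, 171 and 217 CPM in the *FcγRIIB*-/- mice. WT replicate 1 had the lowest level and *FcγRIIB*-/- replicate 2 the highest, and the other WT mice overlapped most of the range of the *FcγRIIB*-/- mice. The log2 fold change was 0.14 (SE 0.30, adjusted p = 0.737), on means of 204 ± 78.2 (SD, n = 5) and 225 ± 71.3 (SD, n = 4). Without WT replicate 1 it was -0.02 (adjusted p = 0.956). The locus also gives transcripts in marrow and immune cells, and counts per gene do not show which transcript was read.

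*Pmp22*, whose dosage is altered in the common demyelinating form of Charcot-Marie-Tooth disease, lies on the plus strand of chromosome 11 (63128982 to 63159547). It had 135, 301, 213, 213 and 227 CPM in WT mice and 208, 319, 215 and 210.2 CPM in *FcγRIIB*-/- mice. Of the 4 *FcγRIIB*-/- mice 3 lay close together, with *FcγRIIB*-/- replicate 2 well above them, and in WT replicate 2 likewise stood above the rest. The log2 fold change was 0.13 (SE 0.21, 95% interval -0.33 to 0.58, adjusted p = 0.664). *Pmp22* is also transcribed in fibroblasts and epithelia.

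Of the genes of non-compact myelin and its links to the axon, *Prx* encodes periaxin, a scaffold that shapes the cytoplasmic channels, and lies on the plus strand of chromosome 7 (27499305 to 27520041). Its CPM was 38.8, 117, 79.3, 66.9 and 86.4 in WT mice and 69.4, 97.1, 66.5 and 70.6 in *FcγRIIB*-/- mice. Both the lowest and the highest mouse were WT, and the difference was the smallest of the 8 in relation to its error (log2 fold change -0.03, SE 0.25, 95% interval -0.59 to 0.53, adjusted p = 0.929). Antisense *Gm15541* covers 5.38% of its exon bases.

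*Mag*, an adhesion molecule of the inner membrane that binds gangliosides on the axon, lies on the minus strand of chromosome 7 (30899175 to 30914922). It was the scarcest of the 8, at 3.12, 7.46, 6.44, 4.41 and 6.32 CPM in WT mice and 4.34, 6.75, 3.73 and 4.76 CPM in *FcγRIIB*-/- mice, on between 86 and 186 counts a mouse. It had the lowest fold change of the 8, at -0.18 on the log2 scale, which was less than its SE of 0.26 (95% interval -0.76 to 0.40, adjusted p = 0.626). Without WT replicate 1 it was -0.31 (adjusted p = 0.311).

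*Ncmap*, which encodes a small membrane protein of non-compact myelin, lies on the minus strand of chromosome 4 (135369576 to 135398240). It had 17.2, 28.5, 25.3, 21.7 and 20.3 CPM in WT mice and 23.7, 33.2, 21.8 and 30.2 CPM in *FcγRIIB*-/- mice. *FcγRIIB*-/- replicates 2 and 4 were above every WT mouse, and replicates 1 and 3 lay among them. Its log2 fold change of 0.27 (SE 0.16, 95% interval -0.09 to 0.63) was the highest of the 8 and did not pass (adjusted p = 0.223).

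*S100b*, a calcium-binding protein used to stain Schwann cells, lies on the plus strand of chromosome 10 (76253836 to 76261319). It had 27.4, 38.8, 36.7, 38.4 and 32.9 CPM in WT mice and 32.2, 32.4, 28.2 and 40.8 CPM in *FcγRIIB*-/- mice, with a log2 fold change of -0.06 (SE 0.13, adjusted p = 0.738). Its highest mouse was *FcγRIIB*-/- replicate 4, unlike for the myelin genes. *Egfl8*, which encodes a secreted protein with EGF-like domains, lies on the minus strand of chromosome 17 (34613349 to 34616562). It had 8.48, 12.4, 11.0, 9.69 and 8.98 CPM in WT mice and 9.53, 9.70, 10.4 and 11.6 CPM in *FcγRIIB*-/- mice, with a log2 fold change of 0.03 (SE 0.13, 95% interval -0.26 to 0.31, adjusted p = 0.893). The *FcγRIIB*-/- mice lay within the range of the WT mice. The *Egfl8* count is uncertain, since 34.9% of its exon bases are shared with *Gm20460* on the same strand and 5.74% with *Agpat1* on the other strand, and *Agpat1* was itself higher in *FcγRIIB*-/- mice (log2 fold change 0.32, adjusted p = 0.00308).

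Per kb of exon, the levels ran in the same order in both groups. *Pmp22* led with 92.6 ± 25.1 CPM per kb (SD, n = 5) in WT mice and 101 ± 23.0 (SD, n = 4) in *FcγRIIB*-/- mice, and its lowest mouse (57.4) was above the highest of any other gene of the 8. *Mbp* (24.0 ± 9.24 in WT mice), *S100b* (23.5 ± 3.22), *Prx* (13.9 ± 5.14) and *Ncmap* (10.1 ± 1.97) followed, and over the 9 mice each overlapped with the next. *Egfl8* (5.74 ± 0.899), *Sox10* (3.84 ± 0.670) and *Mag* (1.36 ± 0.430) came last and did not overlap in any mouse, although the lowest *Egfl8* value (4.81) and the highest *Sox10* value (4.79) nearly touched. Lengths are the union of all annotated exons, so a gene with many transcripts such as *Mbp* has a lower value per kb than its main transcript alone would give.

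The larger differences were between mice of the same group. In 8 of 8 genes WT replicate 1 was lower than the other 8 mice, and WT replicate 2 had the highest level among WT mice in 8 of 8. Among the *FcγRIIB*-/- mice, replicate 2 was highest in 5 genes and replicate 4 in 3, and replicate 3 was lowest in 6 and replicate 1 in 2. The sum of the 8 genes ran from 334 CPM in WT replicate 1 to 809 CPM in WT replicate 2, and from 528 to 839 CPM among *FcγRIIB*-/- mice.

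The spread was unequal among the 8 genes. The highest mouse exceeded the lowest by 3.46 times for *Mbp*, 3.03 times for *Prx*, 2.40 times for *Mag*, 2.36 times for *Pmp22* and 1.93 times for *Ncmap*. These are the genes of the myelin sheath itself. The ratio was 1.61 for *Sox10*, 1.49 for *S100b* and 1.46 for *Egfl8*. In WT mice the coefficient of variation was 38.4% for *Mbp*, 36.9% for *Prx*, 31.6% for *Mag* and 27.1% for *Pmp22*, against a median of 9.29% over 14116 genes whose log2 CPM averaged 1 or more. *Mbp* thus varied more among WT mice than 95.9% of those genes, and *S100b*, at 13.7%, more than 69.5%. In *FcγRIIB*-/- mice *Mbp* again varied most of the 8 (31.7%), while *Sox10* (9.79%) and *Egfl8* (8.92%) were below the median of 11.4%. Nerve held in each dissected mandible was not measured, and in bulk RNA fewer cells of a type and less RNA per cell cannot be told apart.

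**Figure D2:**
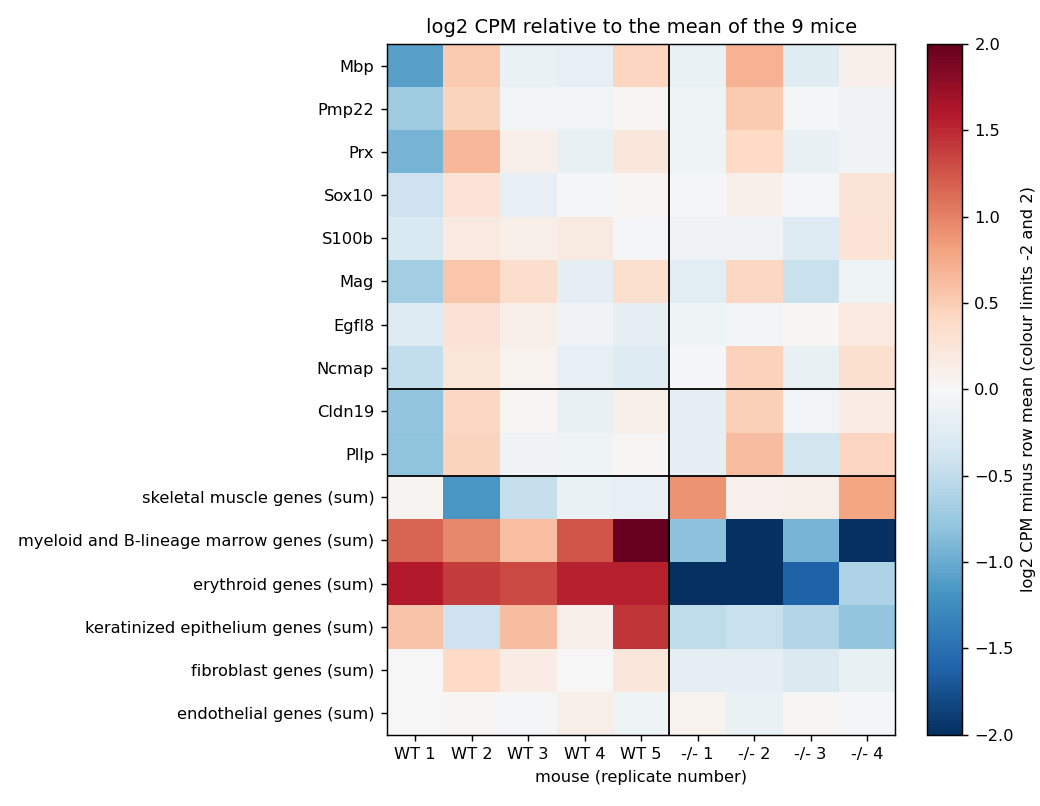
log2 CPM of each gene or summed list (rows) in each of the 9 mice (columns), relative to the mean of the row, with colour limits of -2 and 2. Rows of the 8 genes and of *Cldn19* and *Pllp* are all lowest in WT replicate 1, whereas no summed list of another tissue is. Among WT mice the fibroblast sum still resembles the 8 genes. It is highest in WT replicate 2 and lowest in WT replicates 4 and 1 (67981 and 68003 CPM). *Cldn19* and *Pllp* are shown because their pattern was among the most similar to the 8 genes, so they are no separate evidence. Among nerve list genes not shown, some are lowest in that mouse (such as *Drp2*) and some are not (*Cd9* in WT replicate 2, *Egr2* in WT replicate 3).

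The 8 genes moved together from mouse to mouse. With the group means removed, the Pearson correlation over the 9 mice between each gene and the mean of the other 7 was 0.93 for *Prx*, 0.89 for *Mag* and *Ncmap*, 0.88 for *Mbp*, *Pmp22* and *Sox10*, 0.70 for *S100b* and 0.67 for *Egfl8*. Much of this came from WT replicates 1 and 2. Without that pair it was 0.87 for *Ncmap*, 0.79 for *Mag*, 0.72 for *Mbp*, 0.68 for *Prx*, 0.58 for *Pmp22* and 0.50 for *Sox10*, and 0.31 for *S100b* and -0.01 for *Egfl8*. All points share the library and its normalization, and no p is given.

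The genes with the most similar pattern were found among 14108 other genes by their Pearson correlation with the mean profile of the 8. *Plekhb1*, a membrane protein with a pleckstrin homology domain, came first (r = 0.996, and 0.986 without WT replicates 1 and 2). Others among the 10 most similar were *Kif19a* (0.972), *Cldn19* (0.966), *Plk5* (0.965), *Fam178b* (0.964), *B230206H07Rik* (0.955), *Kank4* (0.955), *Pllp* (0.954) and *Igkv10-96* (0.953). Of these 10, 3 were in the myelin list, among them the tight junction gene *Cldn19* and the plasmolipin gene *Pllp*. Without the same 2 mice the other 9 correlations were between 0.740 (*Kank4*) and 0.977 (*Pllp*). Of the 10, *Plk5* rose (log2 fold change 1.09, adjusted p = 0.00936) and *Igkv10-96* fell (-4.97, adjusted p = 0.00634), and the others did not pass.

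Other genes of nerve were counted in 5 lists of 90 genes, of which 82 were tested. In *FcγRIIB*-/- mice 12 were called lower and 6 higher, 22.0% of those tested beside 33.3% of all genes, with a median log2 fold change of 0.01 (0.01 over all genes). Without *FcγRIIB*-/- replicate 4, 3 were called higher.

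In the myelin sheath list, 3 of 22 genes fell (13.6%) and none rose, beside 19.3% and 14.0% of all genes. The median was -0.02. The abundant *Cd9* and *Mpzl1* had log2 fold changes of 0.18 and 0.01 and were not called. The genes that fell were *Tspan2*, a tetraspanin (-0.65, adjusted p = 0.0224), *Gldn*, which encodes the gliomedin that clusters channels at nodes (-0.52, adjusted p = 0.0180), and *Fig4*, a lipid phosphatase of endosomes (-0.28, adjusted p = 0.0414). *Tspan2* lost its call without *FcγRIIB*-/- replicate 3 or replicate 4 (adjusted p up to 0.0568), and *Fig4* in 7 of the 9 fits without 1 mouse and under the other normalizations, the other filters and DESeq2. *Gldn* kept its call with any single mouse left out but lost it with a block on replicate number (adjusted p = 0.0646).

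Of the 19 Schwann lineage regulators, 3 fell (15.8%) and none rose, beside 19.3% and 14.0% of all genes. The median was -0.09. *Egr2*, the master regulator of myelination, had between 4.09 and 7.85 CPM in WT mice and between 4.24 and 10.2 CPM in *FcγRIIB*-/- mice (log2 fold change 0.08, adjusted p = 0.872). The genes that fell were *Erbb3*, the neuregulin receptor (-0.58, SE 0.16, adjusted p = 0.0198), *Adam22*, a receptor for LGI4 (-0.57, SE 0.15, adjusted p = 0.0144), and *Zeb2*, a transcription factor of Schwann cell differentiation (-0.48, SE 0.11, adjusted p = 0.00791). *Adam22* was between 23.9 and 26.1 CPM in WT mice and between 11.5 and 21.3 in *FcγRIIB*-/- mice, with no overlap. *Erbb3* lost its call without *FcγRIIB*-/- replicate 3 or replicate 4 (adjusted p up to 0.0542) and with a block on replicate number (adjusted p = 0.0695). *Ptprz1* (0.12) and *Nfatc4* (-0.09) were abundant and not called. Which cells of the mandible gave the transcripts that fell was not tested, in this list or the other nerve lists.

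Of the non-myelinating and repair Schwann cell genes, 16 of 17 were tested. Of those, 3 fell (18.8%) and none rose, beside 19.3% and 14.0% of all genes, with a median of -0.09. The adhesion molecule gene *Chl1* was between 36.8 and 61.6 CPM in WT mice and between 20.3 and 28.3 in *FcγRIIB*-/- mice (log2 fold change -0.93, SE 0.15, adjusted p = 0.00189), *Cadm3*, also an adhesion gene, followed with -0.53 (adjusted p = 0.00541), and *Ncam1* with -0.28 (adjusted p = 0.0107). The adhesion genes *L1cam* (-0.14, adjusted p = 0.499) and *Cadm2* (0.0020, adjusted p = 0.993) of the same list, named after their values were seen, were not called. The groups did not overlap in the 3 that fell and in no other of the 16, which is 18.8% beside 29.6% of all genes. All 3 were called with any single mouse left out. The neurotrophin receptor *Ngfr*, a marker of Schwann cells without myelin, had 0.02 (SE 0.13, adjusted p = 0.907), *Gfap*, another marker of these cells that was named after its value was seen, had -0.98 (adjusted p = 0.0576 in edgeR and 0.0326 in DESeq2), the injury-response factor *Jun* -0.11 (adjusted p = 0.610) and the kinase gene *Aatk* 0.26 (adjusted p = 0.102).

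Of the 20 axon and sensory neuron genes, 13 were tested, and the 7 below the filter included the neurofilament genes *Nefl*, *Nefm* and *Nefh*, the latter with at most 18 counts in a mouse. Of the 13, 4 rose and 1 fell, 38.5% beside 33.3% of all genes, with a median of 0.35. *Tubb3*, the neuronal tubulin, was between 22.5 and 29.9 CPM in WT mice and between 37.2 and 41.6 in *FcγRIIB*-/- mice, with no overlap (log2 fold change 0.57, SE 0.09, adjusted p = 0.00165). *Sncg*, encoding gamma-synuclein, had 0.49 (adjusted p = 0.0258), *Rtn1*, a reticulon, 0.35 (adjusted p = 0.0471), and the ubiquitin hydrolase gene *Uchl1*, named after its value was seen, 0.35 (adjusted p = 0.0126). *Piezo2*, the touch channel, fell by 0.33 (adjusted p = 0.0345). *Stmn2* (0.36), *Thy1* (-0.21) and the peptide gene *Calca* (-0.14) were not called. *Piezo2* lost its call in 7 of the 9 fits without 1 mouse, *Rtn1* in 5, and *Sncg* without *FcγRIIB*-/- replicate 1 or replicate 4 (adjusted p up to 0.0704). The summed CPM of the list did not overlap, at 154 to 162 in WT mice and 170.2 to 195 in *FcγRIIB*-/- mice. Without the CPM of *Tubb3* the groups overlapped, as the sum of *FcγRIIB*-/- replicate 3 then fell below that of WT replicate 5. *Tubb3* had the largest rise in the sum, from a mean of 26.6 to 39.5 CPM, while *Piezo2* went from 30.9 to 24.6. Which cells gave these transcripts was not tested.

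In the perineurial and endoneurial list, 2 of 12 genes fell and 2 rose, with a median of -0.04. Together that is 33.3%, the same share as over all genes. *Abca9*, a lipid transporter of connective tissue, had the largest difference of all 5 lists among called genes, at 55.8 ± 6.40 CPM (SD, n = 5) in WT mice and 25.2 ± 4.73 (SD, n = 4) in *FcγRIIB*-/- mice (log2 fold change -1.15, adjusted p = 0.000352). The transcription factor gene *Osr2* had -0.42 (adjusted p = 0.00867). The genes that rose were *Mpzl2* (0.54, adjusted p = 0.0277) and *Itgb4* (0.32, adjusted p = 0.0166), which epithelium also expresses, and *Cldn1*, the most abundant of the list, had 0.41 without a call. *Mpzl2* lost its call without *FcγRIIB*-/- replicate 2, 3 or 4 (adjusted p up to 0.0746).

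**Figure D3:**
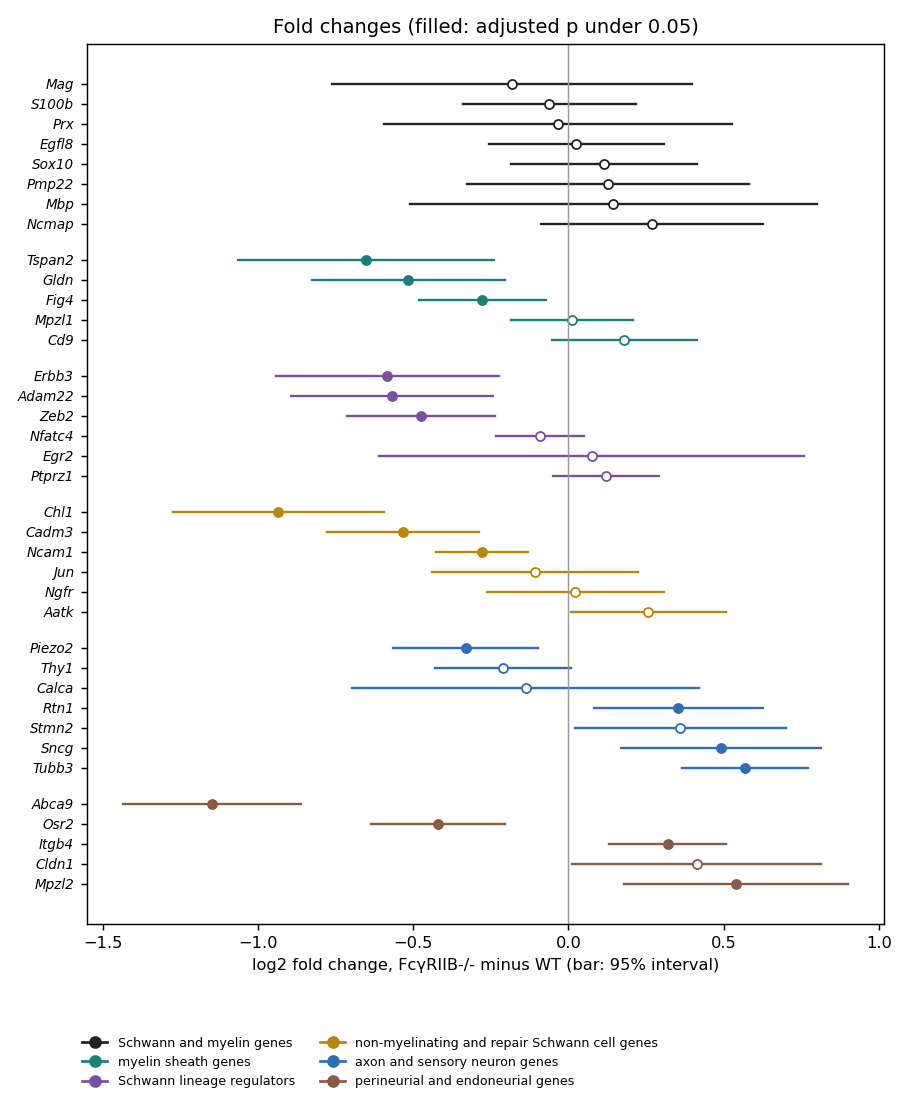
log2 fold change (*FcγRIIB*-/- minus WT, x axis) with its 95% interval for the 8 genes (black) and for named genes of the 5 nerve lists (colours), filled where the adjusted p was under 0.05. All 8 intervals in black span 0, and filled points are found in each of the 5 lists.

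**Figure D4:**
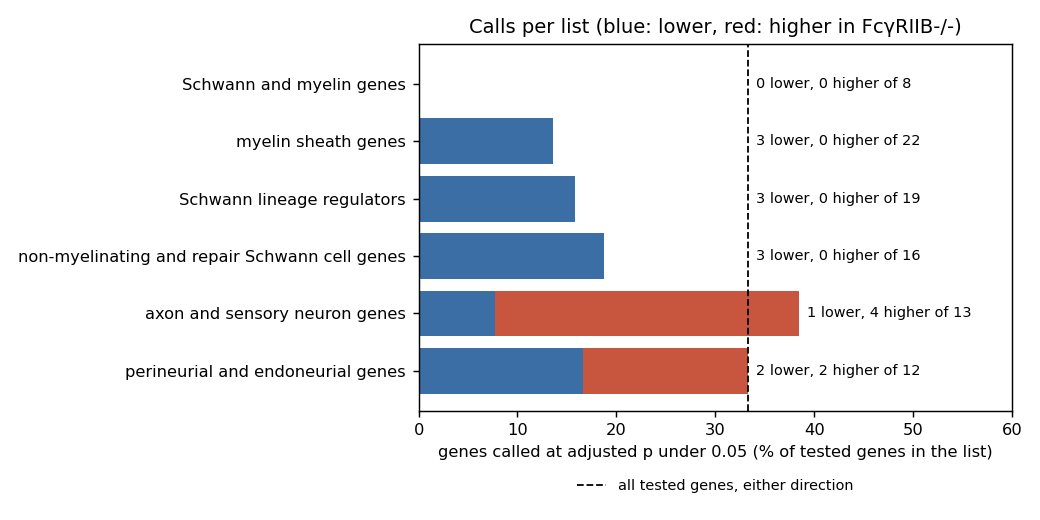
Genes called at an adjusted p under 0.05 as a percentage of those tested (x axis) for the 8 genes and the 5 nerve lists, with blue for lower and red for higher in *FcγRIIB*-/- mice and a dashed line at the 33.3% of all tested genes. The 8 genes have no call, 3 of the 5 lists lie left of the line, the perineurial list is at it and the axon list is to its right.

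Several of the 8 genes are also expressed outside nerve, so the markers of other tissues in the jaw were counted. Central myelin was near absent, as 8 of 10 oligodendrocyte genes were below the filter, with *Mog* and *Opalin* at 0 counts in all mice, and of the 2 tested *Aspa* was not called and *Cldn11* fell. *Sox10* is shared with melanocytes and salivary gland. Only 2 of 8 melanocyte genes were tested, and neither was called (summed CPM 2.73 to 7.26 in WT mice and 5.92 to 7.75 in *FcγRIIB*-/- mice). Of 4 tested salivary genes 1 rose (*Amy1*), and *FcγRIIB*-/- replicate 4 stood apart with a sum of 101 CPM where the other mice had 17.1 to 28.9. WT replicate 2 stood apart from the other WT mice in *Aqp5* (5.62 CPM, next 1.05) and *Bhlha15* (3.97 CPM, next 0.869). It was the lowest mouse for *Amy1*, so its sum does not show this. These 2 mice were also the highest for *Sox10*, and a part of the gland in the *Sox10* count was not tested. *S100b* is shared with cartilage and fat. Of 8 tested cartilage genes 2 fell (773 to 1251 CPM in WT mice and 1009 to 1388 CPM in *FcγRIIB*-/- mice), and of 5 adipocyte genes 1 fell and 1 rose (53.9 to 94.6 and 120.4 to 171 CPM). The fat sum was carried by *Fabp4*, which rose from a mean of 68.2 to 141 CPM and which endothelium also expresses, whereas *Adipoq*, particular to adipocytes, fell (log2 fold change -1.53, adjusted p = 0.00307). The calls in these lists stand beside the 33.3% of all genes called.

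Larger shares were called in the marrow and epithelial lists, beside 33.3% of all genes. All 8 tested erythroid genes fell (summed CPM 1636 to 1961 in WT mice and 97.0 to 426 in *FcγRIIB*-/- mice) and 14 of 15 myeloid and B-lineage marrow genes fell (1229 to 3655 and 165 to 458 CPM). Skeletal muscle genes rose in 7 of 15 (8676 to 20322 and 20630 to 36200 CPM). Of 13 keratinized epithelium genes 10 fell and 1 rose (6305 to 22440 and 4863 to 6170 CPM), and of 10 fibroblast genes 5 fell (67981 to 88818 and 55043 to 60954 CPM). Endothelial genes had 2 lower and 2 higher of 10, and their sums overlapped (737 to 847 and 713 to 821 CPM). Since CPM is a share of the library, these differences are part of the setting of each value given for the nerve genes, and their part in those values was not tested. Of the nerve list genes called lower, *Erbb3*, *Tspan2*, *Chl1*, *Cadm3* and *Abca9* were highest in WT replicate 5. That mouse also had the highest marrow leukocyte and epithelial sums. *Gldn*, *Fig4* and *Zeb2* were highest in WT replicate 2, *Adam22* and *Osr2* in WT replicate 1, and *Ncam1* and *Piezo2* in WT replicate 3. WT replicate 1, lowest for all 8 nerve genes, was the highest WT mouse in the muscle sum and the erythroid sum, and WT replicate 2 was the lowest in muscle and the highest in the fibroblast sum. The lowest WT mice in the fibroblast sum were replicates 4 and 1 (67981 and 68003 CPM). The *FcγRIIB*-/- replicate with the lowest muscle sum, replicate 2, had the highest sum of the 8 nerve genes, but replicate 3, with nearly the same muscle sum, had the lowest.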

How the data were processed

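RNA-seq counts were analysed for mandibles of 5 WT mice and 4 mice labelled *FcγRIIB*-/-, 6 months old. The authors used Trim Galore for trimming and HISAT 02.1.0 (version from the submitters' processing notes) for mapping to mm10, and deposited raw counts per gene from featureCounts. The library kit keeps strand. The annotation, the strand setting and the handling of reads that match several genes are not given in the sources used here. The table holds 1 further column of per-sample values, which matched no sample and was not used. The 1030 rows without a symbol were kept under their Entrez numbers.

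Counts were tested in R 4.3.3 with edgeR 4.0.16 (filterByExpr, minimum count 10; TMM; quasi-likelihood test without covariates; Benjamini-Hochberg adjustment over all 16329 genes at 0.05). Standard errors (SE) were obtained by dividing each log2 fold change by the root of its F value, and intervals are at 95%. log2 CPM used a prior count of 2. Alternatives were DESeq2 1.42.0, other normalizations and filters, a fold limit, a replicate block and leaving out each mouse. The test was checked on simulated counts. Totals of 21453880 to 28991631 counts a mouse leave low genes such as *Mag* with more counting error. Within groups, 0 pairs of libraries agreed within sampling noise.

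The members and lists were chosen with earlier results of these data known. Named were the 8 genes, *Fcgr2b*, a fixed set (*Egr2*, *Erbb3*, *Ngfr*, *Nefl*, *Calca*), up to 3 called genes that changed most in either direction and the 3 most abundant of each nerve list, and the 10 most similar genes. A few of these are not reported here. Positions are those of RefSeq for GRCm38, and exon lengths and overlaps come from GENCODE M21.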

Additional observations from a re-analysis of the deposited data

Results flagged for a closer look

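Single mice stood apart from their group by Dixon's criterion in 7 of 80 combinations of gene and group. For independent combinations chance gives about 1 in 20. The genes moved together from mouse to mouse, so these combinations were not independent and no excess can be read from the 7. Of the 8 genes, *Pmp22* was 319 CPM in *FcγRIIB*-/- replicate 2 with the next mouse at 215 CPM, and *Prx* was 97.1 CPM in the same mouse with the next at 70.6 CPM. *Egr2*, which encodes the factor that drives myelin genes, was 10.2 CPM in that mouse too, and 4.97 CPM in the next highest. The other values were *Tspan2* at 91.1 CPM in WT replicate 5 (next 54.6), *Nfatc4* at 130.03 CPM in WT replicate 3 (next 119), *Cadm3* at 17.5 CPM in *FcγRIIB*-/- replicate 3 (next 19.6) and *Nefl* at 0.0847 CPM in *FcγRIIB*-/- replicate 3, where the other *FcγRIIB*-/- mice were at 0. The *Nefl* value is 2 counts in a gene below the filter. WT replicate 1 was lowest in all 8 genes without meeting the criterion in any.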

How the results depend on the processing

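The count of Schwann cell and myelin genes called was 0 lower and 0 higher under each of 16 alternatives, and the smallest adjusted p of any of the 8 was 0.0831 (*Ncmap* without WT replicate 2). The fold limit among the 16 can only remove calls, so its 0 was fixed in advance. The sign of the fold change, uncalled throughout, turned for *Mbp* (lowest -0.093, highest 0.32 with 1 mouse left out), *Pmp22* (-0.045 to 0.29), *Prx* (-0.19 to 0.18), *S100b* (-0.17 to 0.013) and *Egfl8* (-0.033 to 0.13). No pairing by replicate number was seen over all tested genes, as the deviations of same-numbered mice correlated at 0.10, 0.03, -0.11 and -0.07. In the mean profile of the 8 genes, replicate 1 was below and replicate 2 above its group mean in both groups. Replicates 3 and 4 went opposite ways in the groups. WT replicate 1 was most similar to *FcγRIIB*-/- replicate 1, but WT replicates 2, 3 and 4 to mice of other numbers. With so few pairs this cannot exclude a pairing. With a replicate block, *Prx* was 0.092 and *Egfl8* -0.0035, both uncalled. *Mbp* went from 0.14 (SE 0.30) to 0.32 (SE 0.16, adjusted p = 0.182), also uncalled. Under that block calls over all genes went from 3144 lower and 2289 higher to 2410 and 1594, and 12 of the 18 called nerve genes kept their call. Those that lost it were *Gldn*, *Fig4*, *Erbb3*, *Uchl1*, *Rtn1* and *Itgb4*. With a log2 fold change of at least 1 required, 1 nerve gene was called lower and 0 higher, and 1069 and 181 of all genes. With 1 mouse left out, 11 of the 18 kept their call in every fit, and the nerve genes called higher numbered between 3 and 7, the lowest without *FcγRIIB*-/- replicate 4. Depth limits *Mag* most among the 8, and 8 genes of the nerve lists were below the filter and not tested.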
